A study of Mus musculus with 10 samples.

Results

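The 10 genes described here are the macrophage growth factor gene Csf1, its receptor gene Csf1r and 8 genes used as macrophage markers: Adgre1, Cd68, Lyz2, Mrc1, Cd163, C1qa, C1qb and C1qc. They were chosen by name from the 21729 protein-coding genes of the deposited table, and 9 of the 10 matched; Adgre1 stands there under its older symbol, Emr1, and was matched by its Ensembl identifier. All 10 passed the filter on low counts. RNA came from digit tip blastemas, the mounds of proliferating tissue from which an amputated mouse digit tip regrows. The groups were ΔLARM1/2 mutants at 12 days post amputation (dpa) with 3 libraries, wild type at 12 dpa with 2, mutants at 14 dpa with 3 and wild type at 14 dpa with 2. The mutant allele removes LARM1 and LARM2, limb enhancers of the homeobox gene Lmx1b, and its labels name no Cre or tissue restriction. All mice were of a mixed CD1 and C57Bl/6 background, aged 33 days at 12 dpa and 35 days at 14 dpa, and each library pooled 6 central hindlimb digits. Whole dissected blastemas were used, with no cell sorting stated, so fewer macrophages and less RNA per macrophage cannot be told apart in any value below.

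Macrophages are phagocytes that arise from blood monocytes or from embryonic precursors, and they depend on signalling through the receptor tyrosine kinase that Csf1r encodes. Csf1 and Il34 encode its ligands. Adgre1 encodes the adhesion receptor by which mouse macrophages are most often recognised, Cd68 a lysosomal membrane protein, Lyz2 the lysozyme of macrophages and neutrophils, Mrc1 the mannose receptor and Cd163 the haemoglobin scavenger receptor. C1qa, C1qb and C1qc encode the chains of C1q, the recognition subunit of the classical complement pathway, which tissue macrophages make. Csf1r and Cd68 are also active in osteoclasts, the bone-resorbing relatives of macrophages, and macrophage depletion is known to block digit tip regeneration in mice.

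Mrc1 and the C1q genes fell in mutants, and the starts of C1qb, C1qc and Mrc1 are shown because they hold the GAGGAA core bound by PU.1, the myeloid transcription factor encoded by Spi1. The sequences are RefSeq promoters of build GRCm38.p6, from 250 bases before to 50 after the gene's start, written 5′ to 3′ on the gene's strand, with GAGGAA in capitals on either strand (TTCCTC where it lies on the other strand). C1qb is at chr4:136886151-136886450 on the minus strand, C1qc at chr4:136892865-136893164 on the minus strand and Mrc1 at chr2:14229164-14229463 on the plus strand.
C1qb: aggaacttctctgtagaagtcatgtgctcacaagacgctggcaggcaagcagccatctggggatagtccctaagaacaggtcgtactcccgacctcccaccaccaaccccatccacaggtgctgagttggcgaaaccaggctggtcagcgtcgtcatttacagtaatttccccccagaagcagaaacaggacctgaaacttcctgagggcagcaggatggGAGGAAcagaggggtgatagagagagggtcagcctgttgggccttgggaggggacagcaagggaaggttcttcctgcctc
C1qc: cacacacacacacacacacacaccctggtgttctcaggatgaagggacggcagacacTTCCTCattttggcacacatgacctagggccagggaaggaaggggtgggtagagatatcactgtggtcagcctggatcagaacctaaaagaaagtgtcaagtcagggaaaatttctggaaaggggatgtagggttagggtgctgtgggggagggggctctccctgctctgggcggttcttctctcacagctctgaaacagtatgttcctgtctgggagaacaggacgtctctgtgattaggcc
Mrc1: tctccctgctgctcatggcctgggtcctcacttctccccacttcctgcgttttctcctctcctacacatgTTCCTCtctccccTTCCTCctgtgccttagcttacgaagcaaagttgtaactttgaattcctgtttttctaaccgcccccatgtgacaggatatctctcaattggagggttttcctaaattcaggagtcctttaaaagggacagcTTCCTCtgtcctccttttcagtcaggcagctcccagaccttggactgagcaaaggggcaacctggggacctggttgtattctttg
The match began at position -30 from the start in C1qb and at position -193 in C1qc, and Mrc1 had 3 matches, at positions -180, -167 and -35. Among the 7 members with a promoter used here, Cd68 also held the letters, at positions -225 and 29, and Csf1, Lyz2 and Cd163 did not. GAGGAA occurred in 28.3% of 32851 promoters of this length, so a match is common and is given as a description only. The genes C1qb, C1qc and C1qa lie next to each other in the GENCODE annotation, with no other coding gene between them.

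Sequencing depth was 69998104 to 101632364 expected counts per library. Lmx1b itself was at 0.0278 to 0.336 CPM (reads per fixed library total, with sizes scaled by the trimmed mean of M-values) in the 6 mutant libraries, against 1.69 to 2.94 CPM in the 4 wild type libraries. Mutant 14 dpa replicate 1 carries a wild type genotype tag while its title and description make it mutant; its Lmx1b level was 0.234 CPM, and it was kept as mutant. Wild type 14 dpa replicate 1 had the lowest share of counts in protein-coding genes, 81.51%, and held Xist reads beside Y-linked reads. Both are called the doubted 14 dpa libraries below. Mutant 12 dpa replicate 3 stood apart in osteoclast genes: the 11 listed genes summed to 1810 CPM there, against 427 and 380 CPM in the other mutant 12 dpa libraries and 505 and 602 CPM in wild type at 12 dpa.

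Over both days 5 of the 10 genes fell in mutants and none rose: Adgre1, Mrc1, C1qa, C1qb and C1qc, by 1.17 to 1.54 on the log2 scale. The other 5, Csf1, Csf1r, Cd68, Lyz2 and Cd163, did not pass the test. The contrast was taken from 1 edgeR quasi-likelihood fit of all 10 libraries with Benjamini-Hochberg adjustment over 20216 genes at a threshold of 0.05, the source of every adjusted p below. In that fit 22.2% of all genes were called lower in mutants and 21.5% were called higher. The 5 of 10, and the both-day counts of the cell type and pathway lists below, are to be read against these shares. The median log2 fold change of the 10 genes was -1.02, against 0.02 for all tested genes. Without the doubted 14 dpa libraries 4 genes were called, C1qc having an adjusted p of 0.0638, and with the tagged library counted as wild type none was called, nor any gene of the cell type lists below, the adjusted p values of the 5 genes then being 0.169 to 0.265.

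**Figure D1:**
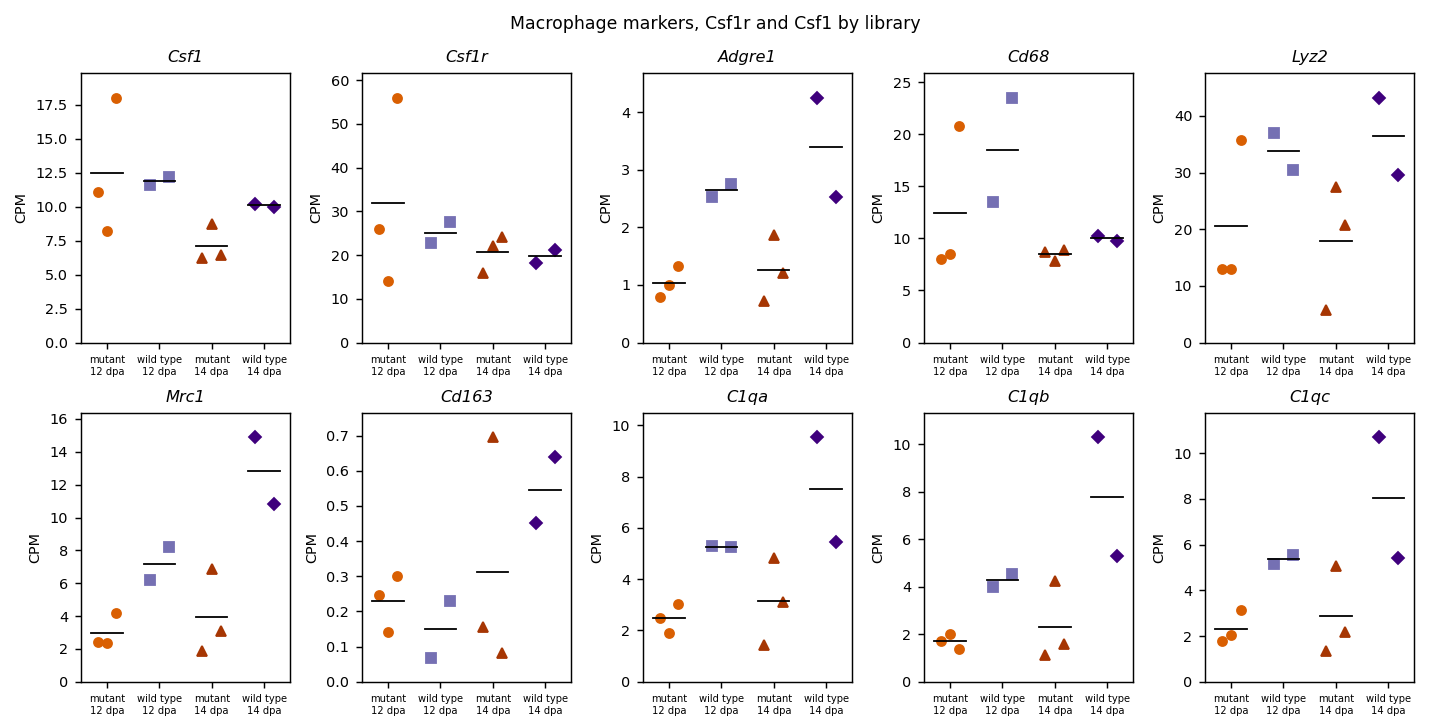
Each panel plots the CPM of 1 gene in every library (points) and the group mean (line), for mutants and wild type at 12 and at 14 dpa. Adgre1, Mrc1 and the 3 C1q genes had every mutant point below every wild type point of the same day, while the Csf1r and Cd163 points overlapped on both days.

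The ligand gene Csf1 had 11.1, 8.21 and 18 CPM in mutants at 12 dpa, against 11.6 and 12.2 CPM in wild type. At 14 dpa it had 6.19, 8.68 and 6.4 CPM in mutants, against 10.2 and 10 CPM in wild type. The groups overlapped at 12 dpa, where mutant replicate 3 was the highest library of all, and did not overlap at 14 dpa. The log2 fold change was -0.22 over both days (SE 0.20, 95% interval -0.68 to 0.23, adjusted p 0.399). Without mutant 12 dpa replicate 3 it was -0.41 with an adjusted p of 0.0486, and on the deposited TPM values, which divide reads by gene length and scale each library to a fixed total, it was 0.19 as log2(TPM + 1) and 0.22 as log2(TPM + 0.1). Within mutants Csf1 had a 14 minus 12 dpa log2 difference of -0.81 (SE 0.26, unadjusted p 0.0114 and adjusted p 0.157 in edgeR), which DESeq2 called, as it did 7.34% of all genes in that contrast.

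The other ligand of the receptor is encoded by Il34, which in skin is made by keratinocytes. It had 18.2, 9.68 and 7.55 CPM in mutants at 12 dpa, against 3.54 and 3.23 CPM in wild type, and 6.73, 8.02 and 6.57 CPM in mutants at 14 dpa, against 4.23 and 5.43 CPM in wild type. Every mutant library was above every wild type library of its day. Il34 rose in mutants over both days, with a log2 fold change of 1.18 (SE 0.24, adjusted p 0.00383). By day it was 1.80 at 12 dpa (adjusted p 0.0101) and 0.56 at 14 dpa, which did not pass (adjusted p 0.211). The difference between the days, -1.25, did not pass either (unadjusted p 0.0226, adjusted p 0.545 in edgeR). The listed keratinocyte genes moved the same way, with 6 of 7 called higher in mutants and summed levels of 50600 to 116000 CPM in mutants against 28700 to 51000 CPM in wild type, and their part in the Il34 difference was not tested.

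Csf1r, the receptor gene, had 25.9, 14.1 and 56 CPM in mutants at 12 dpa, against 22.7 and 27.5 CPM in wild type. At 14 dpa the values were 15.9, 22.1 and 24.1 CPM in mutants and 18.3 and 21.2 CPM in wild type. The groups overlapped on both days, and mutant 12 dpa replicate 3 was again the highest library. The log2 fold change was 0.21 over both days (SE 0.34, 95% interval -0.56 to 0.98, adjusted p 0.645), and differences within that interval could not be told apart. Without mutant 12 dpa replicate 3 it was -0.13. Csf1r overlaps Hmgxb3 on the opposite strand, and no label or note states how strand was used in counting, so reads of the pair cannot be told apart here.

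The macrophage surface receptor gene Adgre1 had 0.788, 0.995 and 1.33 CPM in mutants at 12 dpa, against 2.53 and 2.76 CPM in wild type, and 0.729, 1.86 and 1.21 CPM in mutants at 14 dpa, against 4.25 and 2.53 CPM in wild type. The highest mutant library of either day was below the lowest wild type library. Adgre1 fell in mutants by 1.38 on the log2 scale over both days (SE 0.28, adjusted p 0.00389), a 2.6-fold lower level. It was the only member called at 12 dpa, at a log2 fold change of -1.35 and an adjusted p of 0.0458, where 9.34% of all genes were called lower; among the fits that each left out 1 library its adjusted p ran from 0.0227 to 0.179, and the call was kept only without mutant 14 dpa replicate 1 or mutant 14 dpa replicate 2.

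Cd68 had 8.04, 8.48 and 20.8 CPM in mutants at 12 dpa, against 13.5 and 23.5 CPM in wild type. At 14 dpa it had 8.72, 7.87 and 8.86 CPM in mutants, against 10.2 and 9.77 CPM in wild type. The groups overlapped only at 12 dpa, through mutant replicate 3. The log2 fold change over both days was -0.41 (SE 0.28, 95% interval -1.05 to 0.23, adjusted p 0.270), and without mutant 12 dpa replicate 3 it was -0.71 with an adjusted p of 0.0072.

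Lyz2 was the most abundant of the 10 genes per length, at a mean of 15.2 ± 10.3 TPM in mutants (SD, n = 6) and 21.6 ± 2.55 TPM in wild type (SD, n = 4). It had 13, 12.9 and 35.7 CPM in mutants at 12 dpa, against 37 and 30.5 CPM in wild type, and 5.69, 27.4 and 20.8 CPM in mutants at 14 dpa, against 43.2 and 29.6 CPM in wild type. Wild type libraries lay at 29.6 to 43.2 CPM, and mutant 12 dpa replicate 3 was the mutant library within that range. The log2 fold change of -0.87 did not pass (SE 0.46, 95% interval -1.93 to 0.19, adjusted p 0.160). Its near-identical neighbour Lyz1, to which RSEM may assign some of its reads, rose in mutants with a log2 fold change of 1.19 (adjusted p 0.0325), at 0.385 ± 0.18 CPM in mutants (SD, n = 6) and 0.159 ± 0.0165 CPM in wild type (SD, n = 4).

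Mrc1, the mannose receptor gene, had 2.40, 2.38 and 4.21 CPM in mutants at 12 dpa, against 6.20 and 8.18 CPM in wild type. At 14 dpa it had 1.90, 6.86 and 3.11 CPM in mutants, against 14.9 and 10.8 CPM in wild type. No mutant library reached the wild type range of its day. Mrc1 fell by 1.48 on the log2 scale over both days (SE 0.34, adjusted p 0.0082), a 2.78-fold lower level, and it was called at 14 dpa, with a log2 fold change of -1.69 and an adjusted p of 0.0275. Mrc1 and Lyve1 are also active in lymphatic endothelium, and all 7 tested genes of the endothelial list fell in mutants, with summed levels of 34 to 58.8 CPM in mutants against 164 to 204 CPM in wild type; their part in the Mrc1 difference was not tested.

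Cd163 was close to absent, at 0.0833 to 0.696 CPM in mutants and 0.0681 to 0.640 CPM in wild type. The groups overlapped on both days, and the log2 fold change of -0.08 (SE 0.61, 95% interval -1.44 to 1.28, adjusted p 0.927) leaves a wide range of differences not detectable at this depth.

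The C1q genes fell together. C1qa had 2.49, 1.90 and 3.03 CPM in mutants at 12 dpa, against 5.29 and 5.24 CPM in wild type, and 1.45, 4.83 and 3.12 CPM in mutants at 14 dpa, against 9.54 and 5.45 CPM in wild type. C1qb, whose start is printed above, had 1.71, 2.02 and 1.37 CPM in mutants at 12 dpa, against 4.01 and 4.55 CPM in wild type, and 1.11, 4.25 and 1.58 CPM in mutants at 14 dpa, against 10.3 and 5.28 CPM in wild type. C1qc had 1.78, 2.04 and 3.12 CPM in mutants at 12 dpa, against 5.15 and 5.55 CPM in wild type, and 1.33, 5.06 and 2.18 CPM in mutants at 14 dpa, against 10.7 and 5.4 CPM in wild type. For all 3 genes no mutant library overlapped wild type on its own day, although mutant 14 dpa replicate 2 was the mutant library nearest to wild type and wild type 14 dpa replicate 1 was the highest of all.

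Over both days the log2 fold changes were -1.17 for C1qa (SE 0.31, adjusted p 0.0133), -1.54 for C1qb (SE 0.36, adjusted p 0.00844) and -1.35 for C1qc (SE 0.37, adjusted p 0.0159). At 14 dpa C1qb was called (log2 fold change -1.74, adjusted p 0.0294), while C1qa and C1qc were just outside the threshold, with adjusted p values of 0.0509 and 0.0522. Without wild type 14 dpa replicate 1 the both-day adjusted p was 0.0608 for C1qa and 0.069 for C1qc, at log2 fold changes of -0.94 and -1.06, while C1qb kept its call at -1.26.

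All 3 chains were present in every library. Per length, C1qa made up 33.8 to 48.6% of the summed C1q TPM, C1qb 18.6 to 34.6% and C1qc 26.5 to 37.5%, and the C1qb share was lowest in mutant 12 dpa replicate 3. Set against Csf1r within the same library, summed C1q TPM was 0.66, 1.09 and 0.356 times the Csf1r TPM in mutants at 12 dpa, against 1.96 and 1.72 times in wild type. At 14 dpa this ratio was 0.621, 1.83 and 0.772 in mutants, against 4.76 and 2.33 in wild type. Each mutant library was again below both wild type libraries of its day. The ratio of Adgre1 to Csf1r TPM was 0.0185 to 0.0786 in mutants, against 0.127 to 0.296 in wild type, with no overlap across days.

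**Figure D2:**
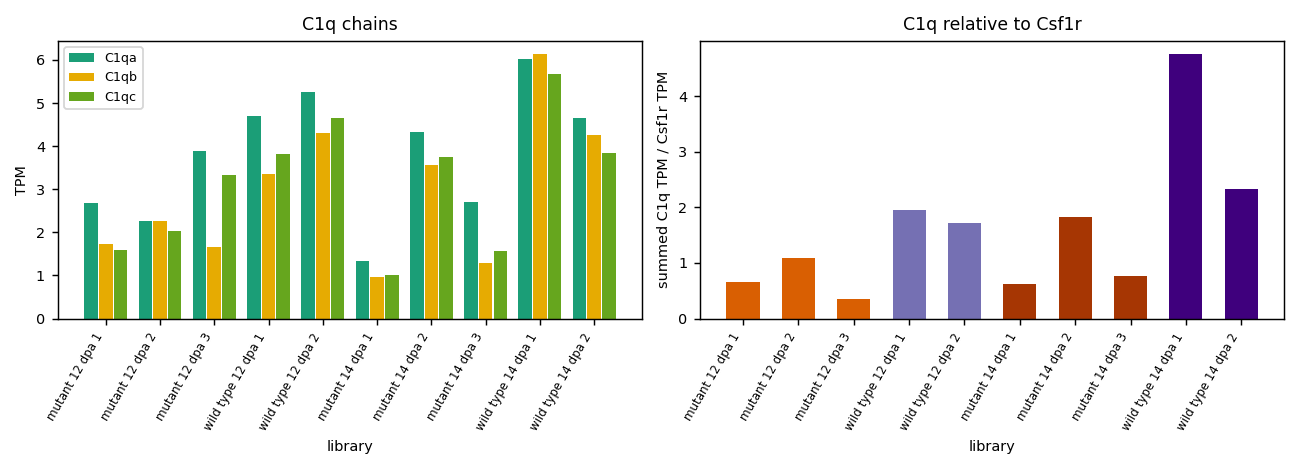
The left panel shows the TPM of C1qa, C1qb and C1qc in each library and the right panel the summed C1q TPM divided by the Csf1r TPM of the same library. The mutant libraries reach ratios of 0.356 to 1.83 and the wild type libraries 1.72 to 4.76.

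At 12 dpa 1 of the 10 genes was called lower, and at 14 dpa 3 were (Adgre1, Mrc1 and C1qb), where 17.2% of all genes were called lower. Neither day's count was stable: the fits that each left out 1 library called 0 to 4 genes at 12 dpa and 0 to 6 at 14 dpa. Without mutant 14 dpa replicate 2 there were 4 and 6 called genes on the 2 days and without mutant 14 dpa replicate 1 there were 3 and 1, and none was called at 14 dpa without wild type 14 dpa replicate 1, without mutant 14 dpa replicate 3 or without the doubted pair. Every mutant library was below every wild type library for 5 genes at 12 dpa, where 26% of all tested genes had that order, and for 8 genes at 14 dpa, where 31.6% had it. The 5 genes with that order on both days were the 5 called over both days, and 19.3% of all genes had it on both days.

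**Figure D3:**
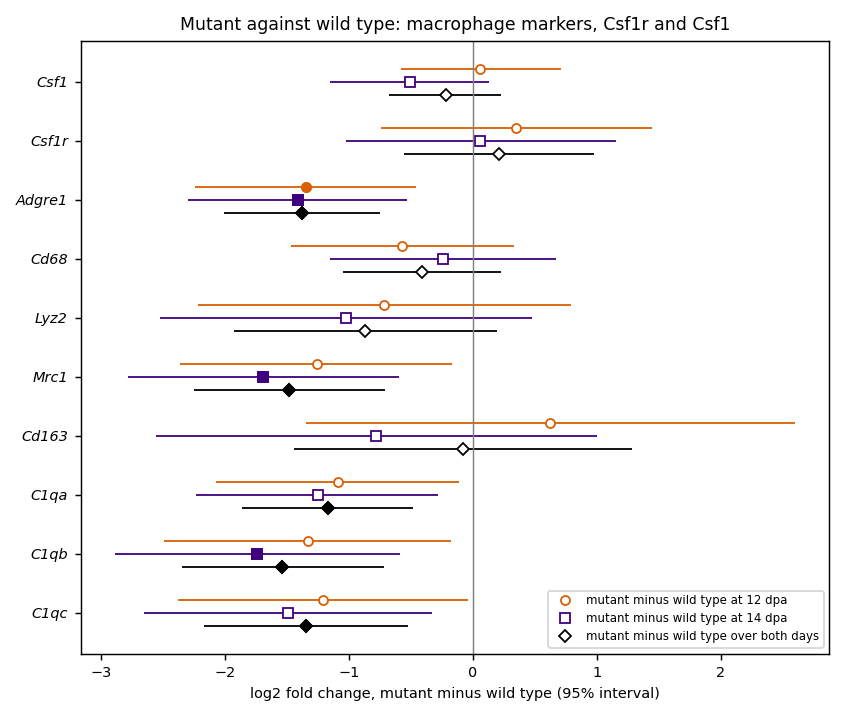
Log2 fold changes of mutant over wild type with 95% intervals from the edgeR fit, for each of the 10 genes at 12 dpa (circles), at 14 dpa (squares) and over both days (diamonds); filled symbols passed the adjusted threshold of 0.05. The intervals of Adgre1, Mrc1 and the C1q genes lie below 0 on both days, and those of Csf1, Csf1r, Cd68, Lyz2 and Cd163 cross 0.

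The genotype difference itself was not shown to change between days. No member (none at an unadjusted p under 0.05 either), and 0% of all genes, passed the test of the difference between the genotype contrasts in edgeR, while 1763 genes had an unadjusted p under 0.05, limma-voom called 0 and DESeq2 called 48. Over the 10 genes the estimates ran from -1.41 for Cd163 to 0.33 for Cd68. From 12 to 14 dpa within mutants edgeR called 7 genes, 0.0346% of all, none of them a member, and Csf1 was the member with an unadjusted p under 0.05. DESeq2 called 1483 genes in that contrast, 7.34% of all, Csf1 among them, and limma-voom called 5. Within wild type 0% were called by edgeR, with 1654 genes at an unadjusted p under 0.05, 0 called by limma-voom and 52 by DESeq2. For Mrc1, which was at 12.8 ± 2.88 CPM in wild type at 14 dpa and 7.19 ± 1.4 CPM in wild type at 12 dpa (SD, n = 2 each), the 14 minus 12 dpa log2 difference was 0.83 (SE 0.53, adjusted p 0.702 in the edgeR fit).

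Per length, Lyz2 was the highest and Cd163 the lowest of the 10 genes in both genotypes. In mutants Lyz2 was followed by Csf1r at 9.81 ± 7.5 TPM, Cd68 at 9.22 ± 6.13 TPM, Csf1 at 3.19 ± 2.31 TPM, C1qa at 2.87 ± 1.09 TPM, C1qc at 2.21 ± 1.08 TPM, C1qb at 1.91 ± 0.924 TPM, Mrc1 at 0.575 ± 0.272 TPM, Adgre1 at 0.403 ± 0.113 TPM and Cd163 at 0.0567 ± 0.0398 TPM (SD, n = 6). In wild type it was followed by Cd68 at 10.2 ± 6.21 TPM, Csf1r at 5.88 ± 1.86 TPM, C1qa at 5.16 ± 0.637 TPM, C1qb at 4.52 ± 1.17 TPM, C1qc at 4.50 ± 0.874 TPM, Csf1 at 2.37 ± 0.47 TPM, Mrc1 at 1.29 ± 0.293 TPM, Adgre1 at 0.93 ± 0.227 TPM and Cd163 at 0.0625 ± 0.0369 TPM (SD, n = 4). In mutants the library ranges of neighbours in this order overlapped or touched, apart from Adgre1 and Cd163. In wild type they overlapped apart from C1qc and Csf1, Csf1 and Mrc1, and Adgre1 and Cd163. TPM is shared among all genes of a library, and protein-coding genes held 27.69 and 33.57% of it in wild type at 14 dpa, against 42.01 to 49.43% in mutants at 14 dpa, which lowers wild type TPM of that day relative to CPM.

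Most pairs of members varied in the same direction among the replicates of a group, though not equally closely. As deviations of log2 CPM from the group mean over the 10 libraries, Adgre1 went with C1qc (Pearson r 0.98), Mrc1 (0.93) and C1qa (0.91), and Mrc1 with C1qc (0.96). Csf1r went with Csf1 (0.90) and Cd68 (0.78), and less closely with Mrc1 (0.54), C1qa (0.48), Adgre1 (0.40) and C1qc (0.38). The only negative values were those of C1qb with Csf1r (-0.12) and with Cd68 (-0.22). These values are descriptions over libraries whose tissue makeup differs, with no test. Mutant 12 dpa replicate 3 was 1.03 above its group mean in log2 Csf1r, 0.97 in Lyz2, 0.89 in Cd68, 0.61 in Csf1 and 0.54 in Mrc1. That library was also above the group mean in C1qc (0.47), Cd163 (0.41), Adgre1 (0.38) and C1qa (0.32). C1qb, 0.29 below, was the only member under its group mean there.

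**Figure D4:**
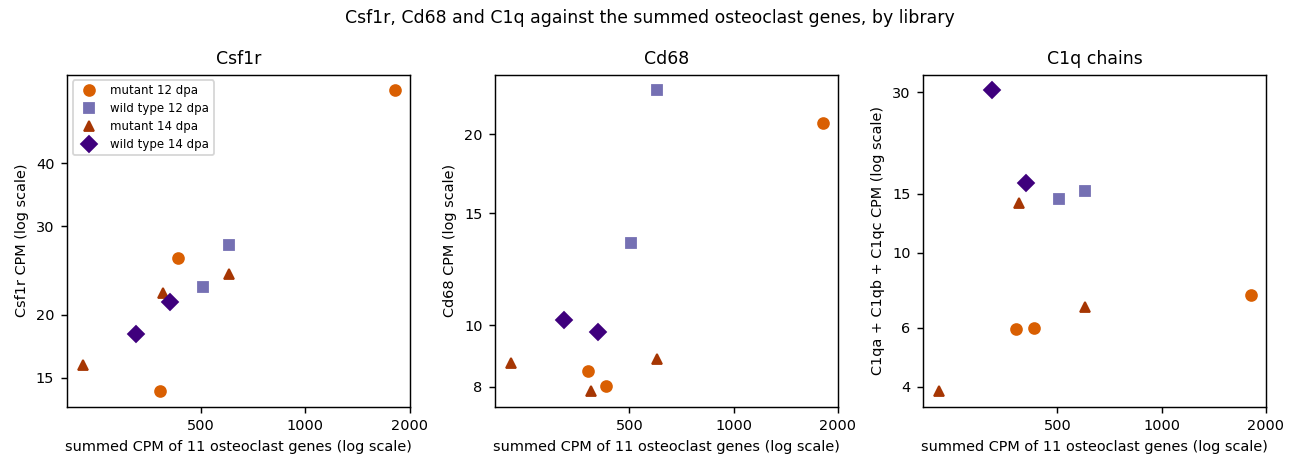
Csf1r, Cd68 and summed C1q CPM of each library against the summed CPM of 11 osteoclast genes, on log scales, with mutants and wild type at 12 and 14 dpa as separate symbols. Mutant 12 dpa replicate 3 lies far right at 1810 CPM and is high for Csf1r and Cd68. Its summed C1q of 7.52 CPM is below all 4 wild type libraries but above the other mutant 12 dpa libraries (5.98 and 5.96 CPM).

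Osteoclast genes were checked because these cells share Csf1r and Cd68. In mutant 12 dpa replicate 3, Ctsk, which encodes the collagen-degrading protease cathepsin K, was at 486 CPM and Mmp9, a matrix metalloproteinase gene, at 912 CPM, against 40 to 185 CPM and 50.9 to 210 CPM in the other mutant libraries and 111 to 157 CPM and 66 to 222 CPM in wild type. None of the 10 tested osteoclast genes was called between genotypes by edgeR, DESeq2 or limma-voom, none had an unadjusted p under 0.05 in any of the 3, and the edgeR fit gave a median log2 fold change of -0.03. That count rests on mutant 12 dpa replicate 3: without it 2 osteoclast genes fell and none rose, 4 had an unadjusted p under 0.05 and the median was -0.70. With the replicate number as a block in the fit (the replicate block) 3 fell and the median was -0.89, and without mutant 12 dpa replicate 1, 1 rose. Their part in the Csf1r, Cd68 and Csf1 levels of that library was not tested.

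Among 10249 protein-coding genes with a mean of at least 5 CPM, those whose deviations were most like Csf1r over the 10 libraries were C1ra (r = 0.996), Laptm5 (0.994), Gla (0.992), Plin2 (0.990) and Tubb6 (0.988). For the mean of the C1q genes they were Col24a1 (0.991), Arhgef40 (0.988), Cdh2 (0.986), Col1a1 (0.986) and Col5a2 (0.986), of which the collagen genes are expressed by connective tissue cells. For Csf1 they were St3gal4 (0.989), Rab4b (0.980), Flot2 (0.980), Lyn (0.979) and Inpp5d (0.967). All of these r values are the highest of 10249 candidates and are descriptions without a test. They rest on few free deviations, since those of each wild type pair mirror each other. The listed blastema fibroblast genes moved with the C1q genes between genotypes too, with 7 of 9 called lower in mutants and summed levels of 2390 to 8480 CPM in mutants against 15900 to 30000 CPM in wild type; their part in the C1q difference was not tested.

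Other monocyte and macrophage genes were split. Of 40 listed, 35 were tested, 10 fell in mutants, 2 rose and 23 did not pass, with a median log2 fold change of -0.21. The 10 of 35 is to be read against the 22.2% of all genes called lower in that fit. Without the doubted 14 dpa libraries 3 fell and 2 rose. Without wild type 14 dpa replicate 1 alone 5 fell and 2 rose, without wild type 12 dpa replicate 1, 4 fell and 2 rose, without mutant 12 dpa replicate 1, 6 fell and 2 rose, and without mutant 12 dpa replicate 2, 6 fell and 4 rose. The replicate block left 6 lower and 2 higher. By day, 2 of the 35 fell and 2 rose at 12 dpa, with a median of 0.02, where 9.34% of all genes were called lower. At 14 dpa 3 of the 35 fell and 2 rose, with a median of -0.55, where 17.2% of all genes were called lower. The chemokine receptor gene Cx3cr1, a marker of resident macrophages and patrolling monocytes, had 0.540, 0.284 and 0.582 CPM in mutants at 12 dpa, against 3.39 and 3.33 CPM in wild type, and 0.104, 1.52 and 0.403 CPM in mutants at 14 dpa, against 4.16 and 2.52 CPM in wild type. No mutant library overlapped wild type, and its log2 fold change was -2.56 (SE 0.57, adjusted p 0.00714). Spp1 (osteopontin, also made by bone cells) fell by 2.05 on the log2 scale, Lyve1 (a hyaluronan receptor of perivascular macrophages and lymphatic vessels) by 2.00 and Ms4a7 (a membrane protein gene of macrophages) by 1.63. Trem2, a lipid-sensing receptor gene of macrophages, and Aif1, which encodes the macrophage protein Iba1, were also among the genes that fell in the fit of all libraries. Cx3cr1, Lyve1 and Aif1 passed in all 10 fits that each left out 1 library, while Spp1 did not pass in 7 of them, Ms4a7 in 6 and Trem2 in 5.

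**Figure D5:**
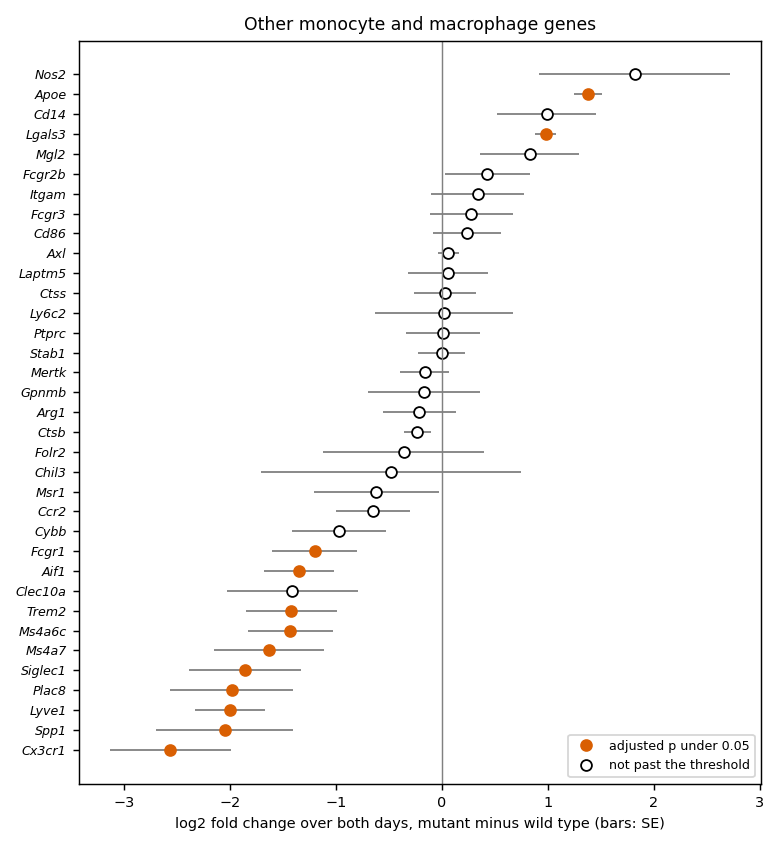
Log2 fold changes of mutant over wild type over both days for the 35 tested genes of the monocyte and macrophage list, with bars of 1 standard error; filled points passed the adjusted threshold of 0.05. Filled points include 10 below 0, led by Cx3cr1 at -2.56, and 2 above 0, Apoe at 1.38 and Lgals3 at 0.98.

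The 2 genes of that list that rose were Apoe, the gene of a lipid carrier, at 232 to 320 CPM in mutants and 77.5 to 138 CPM in wild type, and Lgals3, which encodes galectin-3, at 692 to 926 CPM in mutants and 345 to 444 CPM in wild type. Both are also expressed by keratinocytes or other skin cells and were far above every member in CPM. The pan-leukocyte gene Ptprc (CD45) had a log2 fold change of 0.01 (SE 0.35, 95% interval -0.77 to 0.80, adjusted p 0.979), at 6.92 ± 4.55 CPM in mutants (SD, n = 6) and 6.63 ± 1.03 CPM in wild type (SD, n = 4). It had 6.5, 3.84 and 16 CPM in mutants at 12 dpa, against 7.1 and 5.14 CPM in wild type, and 4.31, 5.71 and 5.16 CPM in mutants at 14 dpa, against 7.48 and 6.78 CPM in wild type. Mutant 12 dpa replicate 3 was the highest library, and at 14 dpa every mutant library was below both wild type libraries. The log2 fold change was 0.52 at 12 dpa and -0.49 at 14 dpa, neither of which passed, and over both days it was -0.37 without mutant 12 dpa replicate 3 (adjusted p 0.147) and -0.35 with the replicate block.

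Of 24 tested genes of the Csf1 pathway and of myeloid regulation, 1 fell, 8 rose and 15 did not pass. Among all genes of that fit 22.2% were called lower and 21.5% higher. The median log2 fold change of the 24 genes was 0.33. Without mutant 12 dpa replicate 3, 4 fell and 9 rose, with a median of 0.11, without mutant 14 dpa replicate 2, 2 fell and 9 rose, and without wild type 14 dpa replicate 2, 1 fell and 5 rose. Spi1, the gene of PU.1, was at 4.94 ± 3.71 CPM in mutants (SD, n = 6) and 3.62 ± 0.911 CPM in wild type (SD, n = 4). It did not pass (log2 fold change 0.41, SE 0.43, adjusted p 0.466). Without mutant 12 dpa replicate 3 its log2 fold change was -0.05, and with the replicate block it was -0.15. Binding of PU.1 to the letters marked in the printed promoters was not tested. Runx1, a transcription factor gene of blood and connective tissue, fell by 0.96 on the log2 scale, while Cebpa, a myeloid and epidermal transcription factor gene, rose by 1.24. Both were at means above 90 CPM in either genotype, against less than 10 CPM for Spi1.

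Among 12 tested partners of C1q, edgeR called the endothelial and myeloid receptor gene Cd93 lower, with a log2 fold change of -1.76, and C1s1, a C1 protease gene, higher by 0.40; 10 did not pass, and the median log2 fold change was -0.24. The C1s1 call was lost without the doubted 14 dpa libraries (adjusted p 0.0834), without wild type 14 dpa replicate 1 (0.0689), with upper quartile factors (0.0572), with a strict filter of at least 1 CPM in 5 libraries (0.0646) and with the replicate block (0.105), and in 6 of the 10 fits that each left out 1 library. DESeq2 called 2 partners lower and 2 higher, limma-voom called 2 lower and 1 higher, and without mutant 12 dpa replicate 3, 4 fell and none rose in edgeR. C1ra, the gene of the other C1 protease, was at 13.5 ± 2.46 CPM in mutants (SD, n = 6) and 16.0 ± 0.658 CPM in wild type (SD, n = 4) and did not pass (log2 fold change -0.25, adjusted p 0.111; -0.35 and 0.0185 without mutant 12 dpa replicate 3). Of 10 tested chemokine genes that attract monocytes and macrophages, none fell and 3 rose (1 without the doubted 14 dpa libraries), and 1 fell without mutant 12 dpa replicate 3 or without mutant 14 dpa replicate 2. Their median log2 fold change over both days was -0.09. At 12 dpa 1 fell and 1 rose, with a median of 0.40, and at 14 dpa none fell and 2 rose, with a median of -0.04. At 12 dpa the listed chemokine genes summed to 261 to 283 CPM in mutants against 382 to 396 CPM in wild type. At 14 dpa they summed to 365 to 474 CPM in mutants against 269 to 286 CPM in wild type. On each day the sum and the median log2 fold change went opposite ways, so the sums do not describe the typical listed gene. Among the chemokine genes Ccl6 rose by 1.44 over both days, at 39.7 ± 17.5 CPM in mutants and 14.3 ± 2.5 CPM in wild type.

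Genes of other leukocytes were counted in the same fit. Of 10 tested Langerhans and dendritic cell genes 6 rose in mutants and 2 fell, but without the doubted 14 dpa libraries none rose and 2 fell; 1 rose without wild type 12 dpa replicate 2 and 3 without wild type 14 dpa replicate 1. In the fit of all libraries Cd207, which encodes langerin of Langerhans cells, rose by 2.19, Cd74, the MHC class II invariant chain gene, by 1.37 and H2-Aa by 1.21, while Zbtb46, a dendritic cell transcription factor gene also active in endothelium, fell by 1.35. Of 9 tested neutrophil genes 4 rose over both days and none fell. The calprotectin genes S100a9 and S100a8, which stressed keratinocytes also express, rose by 5.04 and 3.51, and Cxcr2, a chemokine receptor gene of neutrophils, rose by 1.32 (adjusted p 0.00104), at 9.15 ± 2.11 CPM in mutants (SD, n = 6) and 3.66 ± 0.867 CPM in wild type (SD, n = 4). At 14 dpa alone, where 3251 of all 20216 genes were called higher and 3477 lower, 3 rose and 3 fell. The 3 that fell were the granule protein genes Ngp, Ltf and Camp, named because of that count. At 14 dpa Ngp was at 0.013 to 0.199 CPM in mutants against 0.496 and 2.97 CPM in wild type, Ltf at 0.0781 to 0.119 CPM in mutants against 0.336 and 1.54 CPM in wild type, and Camp at 0 in the mutant libraries against 0.131 and 0.413 CPM in wild type. Both wild type libraries were above all mutant libraries of that day for these genes, and wild type replicate 2 was the highest. Of the other granule genes, Elane was at 0 in all 10 libraries and Mpo at no more than 0.0795 CPM in mutants and 0.0408 CPM in wild type.

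None of 5 tested mast cell genes was called by edgeR, DESeq2 or limma-voom or had an unadjusted p under 0.05 over both days, with log2 fold changes of -0.94 to -0.21 in edgeR. Of 7 tested T and NK cell genes 3 had an unadjusted p under 0.05 in edgeR and 1 was called, Cd3g, which rose by 1.85 (adjusted p 0.0425). Cd3g encodes a chain of the T cell receptor complex and was at no more than 0.305 CPM in any library. Its edgeR call was lost with upper quartile factors (adjusted p 0.0512), protein-coding genes alone (0.0507) and the replicate block (0.116). It was also lost without mutant 12 dpa replicate 1 (0.0937). DESeq2 called Cd3g and Cd3e higher and Cd4 lower, and limma-voom called Cd4 lower and none higher; Cd4 had a log2 fold change of -1.05 and an adjusted p of 0.0668 in edgeR. Cd3g, Cd3e and Cd4 are named because of these calls.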

How the data were processed

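The authors deposited, per gene and library, RSEM-style tables of expected counts, which are not normalized, and of TPM, which is scaled by length to a fixed total, per the file headers. RSEM 1.3.0, STAR 2.7.8a, FastQC and GRCm39 are named, per the submitters' processing notes, without roles. Per the labels' protocols total RNA went into a stranded Illumina kit. Of the expected counts 13.9% were not whole, and RSEM splits reads shared by similar genes. Each file lists 55416 identifiers, named from GENCODE M21 for 52083 of them; promoters come from RefSeq on GRCm38.p6, and no GRCm39 coordinates were used.

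Rounded expected counts entered edgeR 4.0.16 under R 4.3.3, with limma 3.58.1: filterByExpr (minimum count 10, minimum total 15) kept 20216 genes, with TMM factors and 1 robust quasi-likelihood fit of 4 group means without covariates. Common dispersion was 0.0767. The script was tested on simulated data. Alternatives, with DESeq2 1.42.0, limma-voom, limma on log2(TPM + 1) and log2(TPM + 0.1), other scalings and filters, a sex term, a replicate block and left-out libraries, are given under the dependence on processing; leaving out the doubted pair and using protein-coding genes alone were chosen after seeing the data.

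Groups follow the titles; titles and descriptions number the wild type 14 dpa pair in opposite order. The design text calls replicates biological, but nothing says that same-sex libraries of a group came from separate animals. The p-values measure the spread between libraries, which may be technical between same-sex ones. No batch is labelled. Each group held 1 library of female mice by Xist and Y-linked counts. The other libraries of its group held Y-linked reads, so they did not come from those female mice alone. The members and gene lists were chosen with earlier results of these data known. All members are named; from each list at most 4 genes past the threshold with the largest fold change and a mean of at least 1 CPM are named, with genes needed to read a member (Lyz1, Il34, Spi1, Ptprc) and those singled out after their values were seen (Trem2, Aif1, Apoe, Lgals3, C1ra, Ctsk, Mmp9, Elane, Mpo); 1 gene that the rule names is not reported here.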

Additional observations from a re-analysis of the deposited data

How the results depend on the processing

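The both-day directions of Adgre1, Mrc1, C1qa, C1qb, C1qc, Cd68 and Lyz2 held in all 23 alternatives. The both-day count of 5 called genes went to 0 with the tagged library as wild type and ranged from 3 to 7 when 1 library was left out (3 without wild type 14 dpa replicate 1, 7 without mutant 12 dpa replicate 3). The 12 dpa count of 1 was 3 with DESeq2, 5 with only that day's libraries and 2 without the doubted pair; it was 0 on TPM with either pseudocount, with the tagged library as wild type, with the sex term and with the replicate block, and 0 to 4 with 1 library left out. The 14 dpa count of 3 was 5 with upper quartile factors, the strict filter (at least 1 CPM in 5 libraries), DESeq2, limma-voom and protein-coding genes alone, 1 with no filter, and 0 with the tagged library as wild type, with only that day's libraries and without the doubted pair; it was 0 to 6 with 1 library left out. DESeq2 called 1 member, Csf1, for 14 minus 12 dpa in mutants, where edgeR called none. Signs turned for Csf1 on TPM (0.19 and 0.22), for Csf1r with the replicate block (-0.17) and among fits leaving out 1 library (-0.13 to 0.38), and for Cd163 with the tagged library as wild type (0.27), with the block (0.13) and among fits leaving out 1 library (-0.78 to 0.48); none of these values passed. The strict filter dropped Cd163. The causes were not tested. Replicate numbers did not pair the samples (same-number correlations of deviations -0.121 to 0.0862), and the block kept the 5 both-day calls. Depth limits Cd163, at 5 to 70 expected counts per library.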
